A study of Arabidopsis thaliana with 12 samples.

Results

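The 3 MIR160 loci of Arabidopsis thaliana, MIR160a (AT2G39175), MIR160b (AT4G17788) and MIR160c (AT5G46845), were described together with the 3 AUXIN RESPONSE FACTOR (ARF) genes that their microRNA targets, ARF10 (AT2G28350), ARF16 (AT4G30080) and ARF17 (AT1G77850). They were chosen by identifier and make up 6 of the 32420 gene loci in the deposited tables of 21-nt and 22-nt small RNA reads. Whole seedlings aged 10 days were sampled in 4 groups: dcl4-2 on MS medium without nitrogen (MS-N), dcl4-2 on complete MS medium, Col-0 on MS-N and Col-0 on MS. Col-0 is the wild type, and dcl4-2 is a mutant allele of DCL4 (DICER-LIKE 4), which makes 21-nt siRNAs from double-stranded RNA. Each group had 3 biological replicates, so that 12 small RNA libraries were compared. The nitrogen comparison (MS-N over MS) was made in each genotype and the genotype comparison (dcl4-2 over Col-0) on each medium.

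miR160 is a conserved plant microRNA that DICER-LIKE 1 cuts from short hairpins and that guides ARGONAUTE 1 to the messengers of ARF10, ARF16 and ARF17. These ARFs are DNA-binding proteins of the class held to repress auxin-responsive genes. In Arabidopsis, ARF10 and ARF16 act in root cap formation, ARF10 in germination and ARF17 in adventitious rooting. A messenger cut by a microRNA can also be copied into double-stranded RNA, which DCL4 cuts into 21-nt siRNAs and, where DCL4 is missing, DICER-LIKE 2 into 22-nt siRNAs. A small RNA count at an ARF gene is an amount of small RNA from that gene and not the level of its messenger.

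The hairpins are shown because they tell which reads the 3 MIR160 loci can share. They were read from RefSeq (TAIR10.1), 5′ to 3′, with the 21 bases of the mature miR160 in capitals. The deposited tables give no coordinates. MIR160a lies at chr2:16340279-16340363 on the plus strand, MIR160b at chr4:9888982-9889070 on the plus strand and MIR160c at chr5:19009094-19009182 on the minus strand.
MIR160a: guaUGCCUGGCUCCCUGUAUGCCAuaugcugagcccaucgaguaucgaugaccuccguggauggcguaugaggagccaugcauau
MIR160b: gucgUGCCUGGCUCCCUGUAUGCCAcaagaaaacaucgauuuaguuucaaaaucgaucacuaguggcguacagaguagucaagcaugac
MIR160c: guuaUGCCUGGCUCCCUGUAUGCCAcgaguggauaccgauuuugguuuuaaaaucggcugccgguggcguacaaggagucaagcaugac
The mature miR160 is the same 21 bases in all 3 hairpins and matches the genome perfectly at these 3 places. A 21-nt read of it therefore cannot be assigned to 1 locus, and how the authors counted such reads is not given in the sources used here. RefSeq also lists a strand from the other arm of MIR160a and of MIR160c, each with 1 genome match. In the mature sequences the seed, bases 2 to 8, is in capitals.
miR160, all 3 loci: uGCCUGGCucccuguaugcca
miR160a-3p: gCGUAUGAggagccaugcaua
miR160c-3p: cGUACAAGgagucaagcauga

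Read length decides how far the loci can be told apart. A read 1 base longer than the mature miR160 takes in a flanking base, shown in capitals, and 2 of the 4 possible forms then match 1 place only.
3′-extended, MIR160a: ugccuggcucccuguaugccaU
3′-extended, MIR160b and MIR160c: ugccuggcucccuguaugccaC
5′-extended, MIR160a and MIR160c: Augccuggcucccuguaugcca
5′-extended, MIR160b: Gugccuggcucccuguaugcca
Over the whole hairpins, MIR160a and MIR160c share 3 words of 21 bases and 2 of 22 bases, MIR160b and MIR160c share 2 and 1, and MIR160a and MIR160b share 1 and 0. A 22-nt read without mismatch therefore cannot come from both MIR160a and MIR160b. The 21-nt values of these loci are uncertain as values of single loci for this reason.

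The target sites are shown because they set ARF10, ARF16 and ARF17 apart from the rest of the family. Each site was found in the RefSeq messenger as the stretch closest to the perfect complement of miR160, and capitals mark bases that differ from that complement, G:U pairs included.
perfect complement: uggcauacagggagccaggca
ARF10: AggAauacagggagccaggca
ARF16: GggUUuacagggagccaggca
ARF17: uggcauGcagggagccaggca
The ARF10 site, chr2:12115741-12115761 on the plus strand, is in exon 2 of 4 and differs at 2 bases. In ARF16 the site, chr4:14704141-14704161 on the minus strand, is in exon 3 of 4 and differs at 3 bases. In ARF17 the site, chr1:29274189-29274209 on the plus strand, is in exon 2 of 3 and differs at 1 base. All 3 are coding, and the differences lie in the part that pairs with the 3′ end of the microRNA. The closest stretch in the other 20 ARF messengers differed from the complement at 7 to 11 bases, with a median of 8.

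Library totals were inferred from the read classes, as the smallest total that makes each value of a library a whole number of reads. These totals were 4515437 to 7270637 reads. The genotype label was checked on the class of trans-acting siRNAs (tasiRNAs), which DCL4 makes at 21 nt: it had 2675 ± 175 rpm (reads scaled to library size) in dcl4-2 on MS-N, 1128 ± 147 in dcl4-2 on MS, against 45790.4 ± 4749 in Col-0 on MS-N and 26379 ± 3899.6 in Col-0 on MS (SD, n = 3 each). The microRNA class as a whole moved with both factors. At 21 nt it held 211199 ± 9553 rpm in dcl4-2 on MS-N, 111687 ± 7732 in dcl4-2 on MS, against 145602 ± 5189 in Col-0 on MS-N and 85653 ± 8204 in Col-0 on MS. Fragments of tRNA at 21 nt averaged 3811, 2592, 2000.5 and 3250 rpm in the same order of groups, and their part in the results was not tested. Whole seedlings are mixed tissue, in which fewer cells of a type and less RNA per cell cannot be told apart.

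MIR160a and MIR160c carried most of the 21-nt reads of the family, and their lowest group was Col-0 on MS. Values at loci are normalized reads, that is whole reads divided by a size factor per library, recovered from the authors' group means. Library 1, 2 and 3 of a group are ordered by size factor and cannot be matched between the 21-nt and 22-nt tables. MIR160c had 2294, 1795 and 2719 normalized reads in dcl4-2 on MS-N, 1925, 1673 and 457 in dcl4-2 on MS, against 812, 1131 and 1546 in Col-0 on MS-N, and 217, 395 and 305 in Col-0 on MS. MIR160a had 1942, 1436 and 2306 in dcl4-2 on MS-N, 1848, 1578 and 364 in dcl4-2 on MS, against 595, 1001 and 1338 in Col-0 on MS-N, and 142, 347 and 258 in Col-0 on MS. At both loci every library of the other 3 groups lay above all 3 of Col-0 on MS, and library 3 of dcl4-2 on MS lay far below the other 2 of its group. MIR160b had 336, 103 and 325 in dcl4-2 on MS-N, 704, 616 and 49.8 in dcl4-2 on MS, against 54.4, 69.9 and 354 in Col-0 on MS-N, and 37.9, 75.6 and 22.7 in Col-0 on MS. Its groups overlapped in all 4 comparisons.

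**Figure D1:**
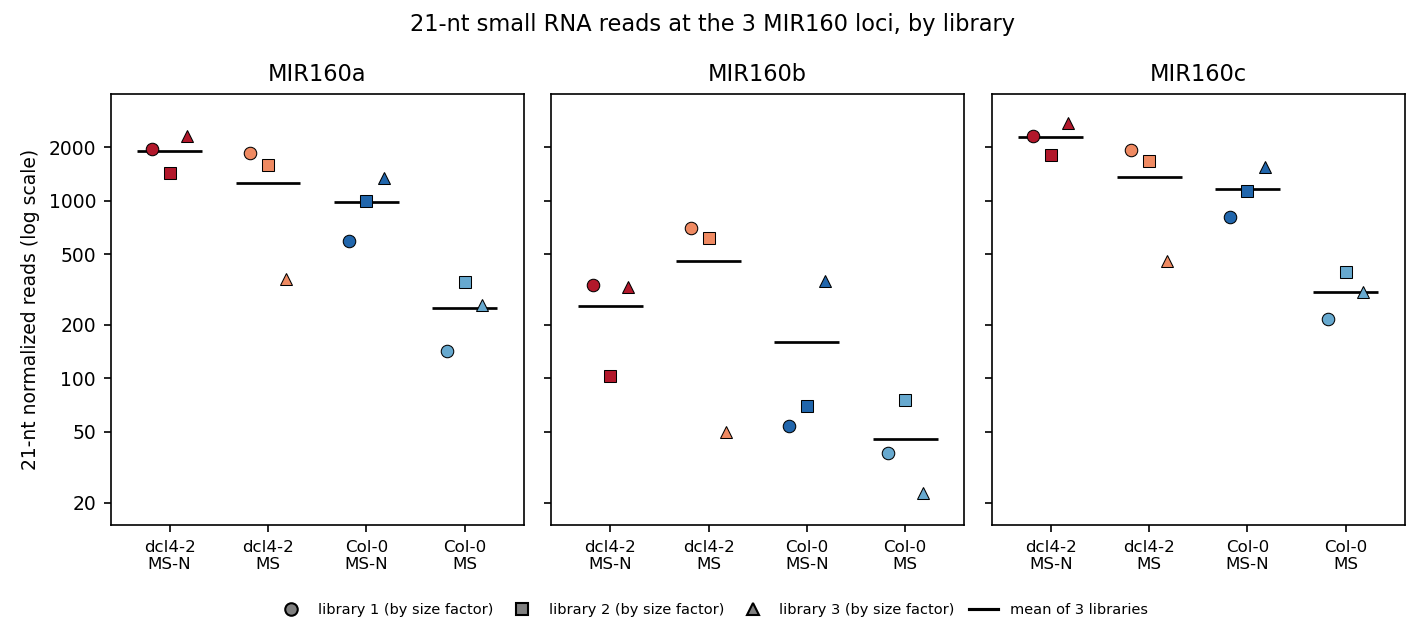
Normalized 21-nt reads (log axis) at MIR160a, MIR160b and MIR160c in each recovered library, by group, with the group mean (n = 3). Library 3 of dcl4-2 on MS is low at all 3 loci, at 364, 49.8 and 457 normalized reads for MIR160a, MIR160b and MIR160c.

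MIR160a and MIR160c had similar numbers of 21-nt reads. In single libraries MIR160a held 65.5 to 96.0% as many whole reads as MIR160c, and MIR160b held 5.74 to 36.8% as many. Per kilobase of hairpin the order of the group means was MIR160c, MIR160a, MIR160b in every group. In dcl4-2 on MS-N the means were 25499 ± 5197, 22291 ± 5141 and 2860 ± 1476 normalized reads per kilobase. In Col-0 on MS they were 3435 ± 1004, 2931 ± 1210 and 510 ± 306. These SDs are between libraries and do not measure the spread of the gap between MIR160c and MIR160a, since both were counted in the same libraries. In whole reads MIR160c exceeded MIR160a in every library, by 45 to 332. MIR160b lay below both in every group.

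Nitrogen deprivation of Col-0 went with about 4 times as many 21-nt reads at MIR160a and MIR160c. MIR160a averaged 978 ± 372 normalized reads in Col-0 on MS-N and 249 ± 103 in Col-0 on MS (SD, n = 3 each), a 3.93-fold difference (log2 change 1.98 ± 0.28, SE, adjusted p = 1.77e-07, limma with Benjamini-Hochberg adjustment over the 19386 loci tested). MIR160c averaged 1163 ± 368 and 306 ± 89.3, a 3.80-fold difference (log2 change 1.92 ± 0.25, adjusted p = 1.15e-08). MIR160b averaged 159 ± 169 and 45.4 ± 27.2, and with its overlapping groups it missed the threshold of 0.05 (log2 change 1.43 ± 0.48, adjusted p = 0.0640). So 2 of the 6 members passed upward and 0 downward, where 2.08% of all tested loci passed upward and 3.86% downward. The 21-nt values (log2) of these 2 loci correlated at r = 0.995 over the 12 libraries. Since they share the mature miR160, counts of members at 21 nt may count the same reads more than once. In the authors' deposited table the same comparison had adjusted p = 0.0123 for MIR160a, 0.341 for MIR160b and 0.00246 for MIR160c.

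These calls depend on how the spread is estimated. limma draws the spread of each locus towards that of loci of similar level, and the SD it used (log2) was 0.34 for MIR160a, 0.59 for MIR160b and 0.30 for MIR160c, against 0.80, 1.44 and 0.67 from the libraries of the loci themselves. With the spread of each locus alone, limma gave adjusted p = 0.168 for MIR160a and 0.109 for MIR160c in this nitrogen comparison, and no MIR160 locus passed at 21 nt in any comparison. Robust moderation likewise left 0 MIR160 loci past the threshold at 21 nt. An exact permutation test at a single locus over both genotypes together, with medium permuted within genotype, gave two-sided p = 0.02 for MIR160a, 0.52 for MIR160b and 0.01 for MIR160c, with no adjustment over the 24 such tests made. With genotype permuted within medium, this test gave 0.005 for MIR160a, 0.065 for MIR160b and 0.005 for MIR160c at 21 nt. At 22 nt it gave 0.005 at all 3 loci for both factors, the smallest value that 400 arrangements allow. Within Col-0 alone, 3 libraries against 3 cannot give an exact p below 0.1.

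In dcl4-2 the nitrogen comparison at 21 nt rested on library 3 of the MS group. MIR160a averaged 1895 ± 437 normalized reads in dcl4-2 on MS-N and 1263 ± 791 in dcl4-2 on MS (1.50-fold, log2 change 0.87 ± 0.28, adjusted p = 0.0298). MIR160c averaged 2269 ± 463 and 1352 ± 785 (1.68-fold, log2 change 0.98 ± 0.25, adjusted p = 0.00388). Both groups overlapped at both loci, and 2 of 6 members passed upward where 8.47% of all tested loci did and 4.66% passed downward. Without that library the log2 changes were 0.12 for MIR160a (adjusted p = 0.752) and 0.32 for MIR160c (adjusted p = 0.241), and MIR160b became lower, at -1.55 (adjusted p = 0.00597). With all libraries MIR160b averaged 255 ± 131 in dcl4-2 on MS-N and 456 ± 355 in dcl4-2 on MS and did not pass (log2 change -0.32 ± 0.48, adjusted p = 0.710). MIR160a also missed the threshold without library 1 or library 3 of dcl4-2 on MS-N (adjusted p = 0.0704 and 0.157). In dcl4-2 on MS the highest library exceeded the lowest 5.08-fold at MIR160a, 14.1-fold at MIR160b and 4.22-fold at MIR160c. The median of that ratio was 1.80 over the 55 microRNA loci with a mean of at least 100 there, and library 3 was the lowest at 28 of them.

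Reads of 21 nt at MIR160 were more numerous in dcl4-2 than in Col-0 on MS. MIR160a averaged 1263 ± 791 normalized reads in dcl4-2 and 249 ± 103 in Col-0 (5.07-fold, log2 change 2.12, adjusted p = 1.31e-07), and MIR160c averaged 1352 ± 785 and 306 ± 89.3 (4.42-fold, log2 change 1.93, adjusted p = 4.08e-08). Both had groups that did not overlap, where 5.12% of all tested loci had such groups, higher in dcl4-2. MIR160b averaged 456 ± 355 and 45.4 ± 27.2 (10.1-fold, log2 change 2.76, adjusted p = 8.58e-05), although library 3 of dcl4-2, at 49.8, lay inside the range of Col-0. These 3 of 6 members compare with 0.5% of all tested loci that passed upward and 0.774% downward. They passed whichever single library was left out, with log2 changes of 1.69 to 2.87 for MIR160a, 2.1 to 4.0 for MIR160b and 1.56 to 2.59 for MIR160c. Scaling to the rpm of the whole microRNA class gave log2 changes of 1.69 for MIR160a, 2.34 for MIR160b and 1.51 for MIR160c. With equal sums over the microRNA loci whose means were split into library values they were 1.16, 1.81 and 0.97, and all 3 loci passed with both scalings (adjusted p up to 0.00422 for MIR160a, 0.00714 for MIR160b and 0.0067 for MIR160c). With the spread of each locus alone the adjusted p was 0.315, 0.533 and 0.273 for MIR160a, MIR160b and MIR160c.

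On MS-N the genotype difference at 21 nt was smaller. MIR160a averaged 1895 ± 437 normalized reads in dcl4-2 and 978 ± 372 in Col-0 (1.94-fold, log2 change 1.0, adjusted p = 0.0243), and MIR160c averaged 2269 ± 463 and 1163 ± 368 (1.95-fold, log2 change 0.99, adjusted p = 0.00844). At both loci all 3 libraries of dcl4-2 lay above all 3 of Col-0, which held for 14.3% of all tested loci. MIR160b averaged 255 ± 131 and 159 ± 169 and did not pass (log2 change 1.01, adjusted p = 0.229). Of all tested loci 2.32% passed upward here and 2.26% downward. The call at MIR160c was lost without library 1 of Col-0 (adjusted p = 0.160) or library 3 of dcl4-2 (0.0902). The call at MIR160a was lost without library 1 or 2 of Col-0 (0.286 and 0.0751) or library 1 or 3 of dcl4-2 (0.0645 and 0.147). After scaling to the rpm of the whole microRNA class, the log2 changes were 0.69 for MIR160a and 0.68 for MIR160c (adjusted p = 0.130 and 0.0848). With equal sums over the split microRNA loci, which hold 3.31 to 5.50% of the microRNA sum at 21 nt, they were 0.14 and 0.12 (adjusted p = 0.839 and 0.833). The difference between the nitrogen responses of the genotypes did not pass at any MIR160 locus (log2 difference -1.12 for MIR160a, -1.75 for MIR160b and -0.94 for MIR160c, adjusted p = 0.159, 0.206 and 0.178), but it did at all 3 without library 3 of dcl4-2 on MS (-1.86, -2.98 and -1.60, adjusted p = 4.16e-05, 0.000699 and 2.14e-05). In the fit without that library 179 of the 18899 loci tested passed upward and 43 downward, and with all libraries 0.382% passed upward and 0.0619% downward.

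At 22 nt MIR160b had the most reads of the 3 loci, with little spread between libraries, and MIR160c again lay above MIR160a in every group mean. MIR160b had 183, 202 and 206 normalized reads in dcl4-2 on MS-N, 91.1, 69.9 and 83.6 in dcl4-2 on MS, against 70.5, 76.7 and 88.3 in Col-0 on MS-N, and 49.2, 52.0 and 49.1 in Col-0 on MS. MIR160c had 41.3, 60.7 and 48.5 in dcl4-2 on MS-N, 19.5, 13.4 and 12.9 in dcl4-2 on MS, against 18.7, 11.1 and 12.8 in Col-0 on MS-N, and 3.51, 3.06 and 10.5 in Col-0 on MS. MIR160a had 20.1, 30.9 and 18 in dcl4-2 on MS-N, 17.4, 11.3 and 7.50 in dcl4-2 on MS, against 9.67, 8.30 and 11.3 in Col-0 on MS-N, and 2.63, 1.02 and 7.32 in Col-0 on MS. In each of the 4 comparisons the groups did not overlap at any of the 3 loci, and dcl4-2 on MS-N was the highest group at all of them. Of all tested loci, 20.1% had such groups, higher on MS-N, in dcl4-2 and 11.1% in Col-0. For groups higher in dcl4-2 the shares were 17.9% on MS-N and 5.82% on MS. Per kilobase of hairpin, MIR160b had 2216 ± 141 normalized reads in dcl4-2 on MS-N, against 563 ± 110 for MIR160c and 271 ± 81.6 for MIR160a.

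**Figure D2:**
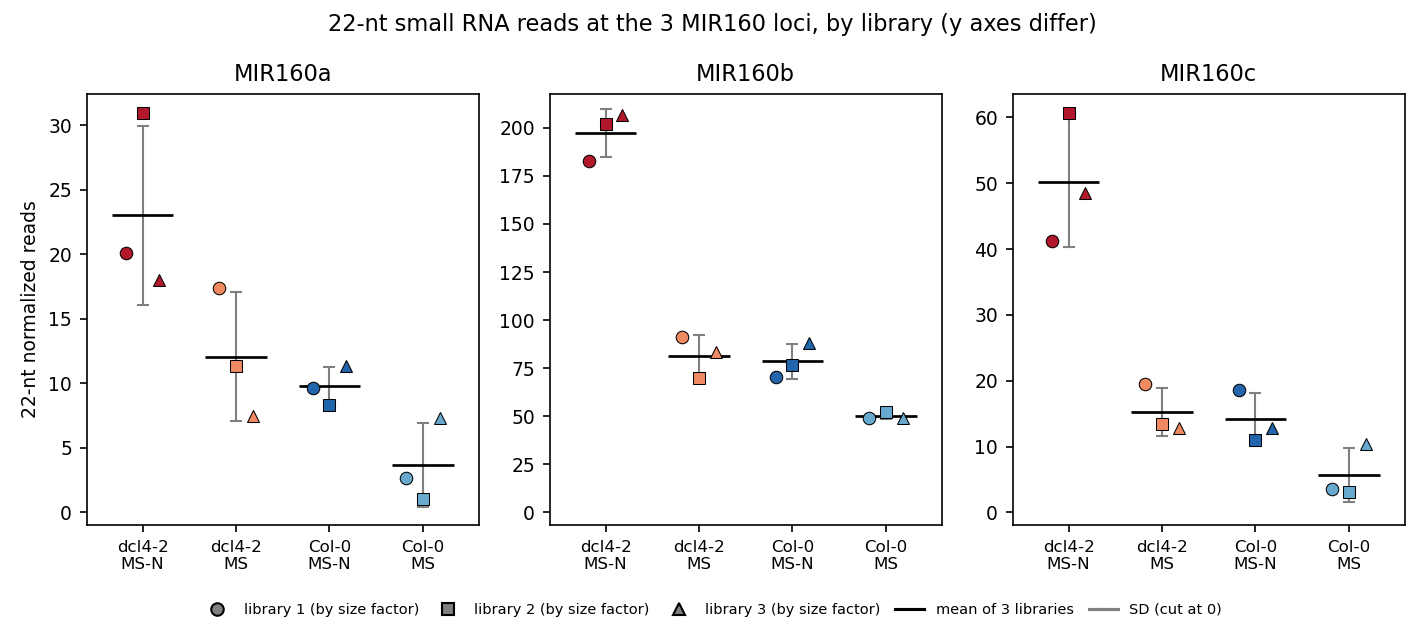
Normalized 22-nt reads (linear axis from 0, one scale per panel) at MIR160a, MIR160b and MIR160c in each recovered library, by group, with the group mean and SD (n = 3). In MIR160b the 3 libraries of dcl4-2 on MS-N, 183 to 206 normalized reads, stand above the 49.1 to 91.1 of all other libraries.

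Nitrogen deprivation of dcl4-2 went with higher 22-nt reads at MIR160b and MIR160c. MIR160b averaged 197 ± 12.5 normalized reads in dcl4-2 on MS-N and 81.5 ± 10.7 in dcl4-2 on MS (2.42-fold, log2 change 1.27 ± 0.20, adjusted p = 5.94e-06, limma over 20148 loci). MIR160c averaged 50.1 ± 9.80 and 15.2 ± 3.67 (3.29-fold, log2 change 1.66 ± 0.37, adjusted p = 0.00118), and MIR160a averaged 23.0 ± 6.94 and 12.1 ± 5.0 without passing (log2 change 0.91, adjusted p = 0.152). Both calls stood whichever library was left out and with the spread of each locus alone. They are 2 of 6 members, where 9.9% of all tested loci passed upward and 5.77% downward. In Col-0 all 3 loci passed in the same direction, with 2.67-fold more at MIR160a (adjusted p = 0.0332), 1.57-fold at MIR160b (0.0447) and 2.50-fold at MIR160c (0.0182), where 1.81% of all tested loci passed upward and 4.56% downward. The Col-0 calls were fragile: leaving out 1 library removed that of MIR160b in 6 of 6 cases, that of MIR160a in 5 of 6 and that of MIR160c in 4 of 6, with adjusted p up to 0.208, 0.283 and 0.153.

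Between genotypes on MS-N, 22-nt reads were 2.51-fold higher in dcl4-2 than in Col-0 at MIR160b (197 ± 12.5 and 78.5 ± 9.02 normalized reads, log2 change 1.32, adjusted p = 5.81e-06) and 3.54-fold higher at MIR160c (50.1 ± 9.80 and 14.2 ± 3.97, log2 change 1.77, adjusted p = 0.00138). MIR160a had 23.0 ± 6.94 and 9.76 ± 1.51 and did not pass (log2 change 1.13, adjusted p = 0.111). Together with ARF10 they made 3 of 6 members, where 4.16% of all tested loci passed upward and 2.12% downward. Equal sums over the split microRNA loci, which hold 23.0 to 34.5% of the microRNA sum at 22 nt, ended both MIR160 calls (MIR160b 0.52 with adjusted p = 0.124, MIR160c 0.99 with adjusted p = 0.0782). Scaling to the rpm of the whole microRNA class kept both (MIR160b 1.05 with adjusted p = 0.000356, MIR160c 1.50 with adjusted p = 0.0065). On MS, MIR160a was 3.30-fold higher (12.1 ± 5.0 and 3.66 ± 3.27, adjusted p = 0.0314) and MIR160c 2.68-fold (15.2 ± 3.67 and 5.67 ± 4.15, adjusted p = 0.0280), while MIR160b had 81.5 ± 10.7 and 50.1 ± 1.62 with adjusted p = 0.0779. The MS calls at MIR160a and MIR160c were each lost in 4 of 6 cases when 1 library was left out, with adjusted p up to 0.341 and 0.249. Both microRNA scalings also ended them (adjusted p = 0.0767 and 0.0857 with the whole class, 0.0628 and 0.0894 with equal sums). Again with ARF10, this was 3 of 6 members where 0.869% of all tested loci passed upward and 0.581% downward. No MIR160 locus had a nitrogen response at 22 nt that passed as different between genotypes (adjusted p = 0.705, 0.236 and 0.787 for MIR160a, MIR160b and MIR160c), where 1.81% of all tested loci passed upward and 0.298% downward.

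Of the 3 MIR160 loci, MIR160b had the highest share of 22-nt reads in every group. Of the whole reads of both lengths at MIR160b, 22-nt reads made up 43.4% in dcl4-2 on MS-N (exact 95% interval 40.4 to 46.3%), 15.7% in dcl4-2 on MS (13.9 to 17.7%), against 32.7% in Col-0 on MS-N (29.8 to 35.7%) and 51.2% in Col-0 on MS (45.4 to 56.9%). At MIR160c the share was 2.14, 1.17, 1.17 and 1.72% in the same order of groups, and at MIR160a 1.2, 0.998, 0.955 and 1.38%. The intervals cover counting error only. In Col-0 on MS-N, library 3 held 491 of the 678 whole 21-nt reads of MIR160b, and without it the share from normalized means was 55.8%, against 33% with all 3. With any 1 of the 21-nt libraries left out, the share ran from 37.4 to 48.0% in dcl4-2 on MS-N, 11 to 19.7% in dcl4-2 on MS, 27.0 to 55.8% in Col-0 on MS-N and 46.9 to 62.3% in Col-0 on MS. These shares have no test, since a library cannot be followed from one length to the other.

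**Figure D3:**
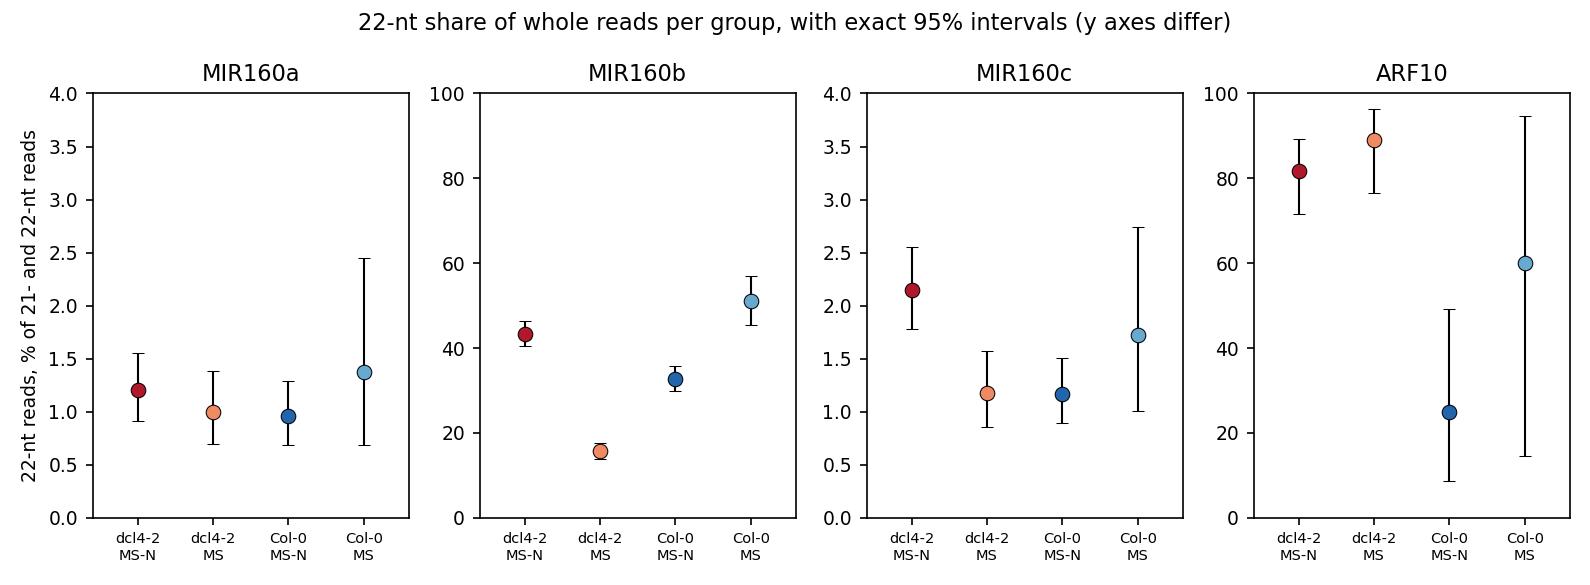
Percentage of 22-nt reads among the whole 21-nt and 22-nt reads of a locus, summed over the 3 libraries of a group, with exact 95% intervals, for MIR160a, MIR160b, MIR160c and ARF10. MIR160a and MIR160c stay at 0.955 to 2.14%, MIR160b spans 15.7 to 51.2%, and ARF10 is at 81.7% and 89.1% in dcl4-2.

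The change of MIR160 was set beside that of the other microRNA genes. Among the 178 loci annotated as microRNA genes, the authors' group means put the MIR160 loci at 0.378% of the 21-nt sum in dcl4-2 on MS-N, 0.417% in dcl4-2 on MS, against 0.355% in Col-0 on MS-N and 0.143% in Col-0 on MS. MIR160c ranked 33, 39, 33 and 49 of the 178 in that order of groups. At 22 nt the share was 0.230, 0.143, 0.146 and 0.114%. Col-0 on MS thus had the lowest share at both lengths. Of the 175 other microRNA genes, 145 were split into library values and 119 could be tested at 21 nt. The split microRNA loci hold 3.31 to 5.50% of the 21-nt microRNA sum, so the abundant ones are left out of these counts. Under nitrogen deprivation 36 rose and 32 fell in dcl4-2 and 33 rose and 33 fell in Col-0. In dcl4-2 relative to Col-0, 47 rose and 1 fell on MS-N and 38 rose and 1 fell on MS. Over all tested loci 8.47, 2.08, 2.32 and 0.5% rose in these 4 comparisons, and 4.66, 3.86, 2.26 and 0.774% fell. The median log2 change of the 119 was -0.17, 0.05, 0.86 and 0.64. Their genotype medians were 0.57 on MS-N and 0.32 on MS after scaling to the rpm of the whole microRNA class, and 0.04 and -0.07 with equal sums over the split microRNA loci. At 22 nt, with 132 tested, the medians were 0.09, -0.02, 0.64 and 0.40, where the split microRNA loci hold 23.0 to 34.5% of the microRNA sum.

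ARF10 gave 22-nt small RNAs in dcl4-2 on both media and almost none in Col-0. The gene had 22.3, 27.4 and 33.3 normalized 22-nt reads in dcl4-2 on MS-N, 14.3, 16.5 and 11.8 in dcl4-2 on MS, against 0.691, 0.691 and 2.26 in Col-0 on MS-N, and 0.878, 2.04 and 0 in Col-0 on MS. Every dcl4-2 library, the lowest at 11.8, lay above every Col-0 library, the highest at 2.26. These values rest on 67, 41, 5 and 3 whole reads per group in that order. The difference was 22.7-fold on MS-N (27.6 ± 5.48 and 1.22 ± 0.908, log2 change 3.75 ± 0.48, adjusted p = 2.04e-07) and 14.6-fold on MS (14.2 ± 2.34 and 0.972 ± 1.02, counting interval of the ratio 4.66 to 73.7, log2 change 3.08 ± 0.48, adjusted p = 2.79e-05). ARF10 passed in both genotype comparisons under every alternative and without any single library, the spread of the locus alone included (adjusted p = 0.00378 on MS-N and 0.0252 on MS). In the authors' deposited table the comparison on MS-N had a log2 ratio of 4.53 and adjusted p = 7.30e-08.

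Nitrogen had no called effect on the 22-nt reads of ARF10. In dcl4-2 the groups did not overlap, with 27.6 ± 5.48 normalized reads on MS-N and 14.2 ± 2.34 on MS, but the test missed the threshold (1.95-fold, log2 change 0.91, adjusted p = 0.204). Of all tested loci 20.1% had such groups, higher on MS-N. In Col-0 the means were 1.22 ± 0.908 on MS-N and 0.972 ± 1.02 on MS (log2 change 0.24, adjusted p = 0.858). Per kilobase of gene, ARF10 at 22 nt had rank 2 of the 23 ARF genes in dcl4-2 on MS-N, at 9.01 normalized reads, after ARF4 at 12.8. It had rank 10 in dcl4-2 on MS (4.62), rank 17 in Col-0 on MS-N (0.396) and 15 in Col-0 on MS (0.317).

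At 21 nt ARF10 had few reads in any group. It had 7.69, 4.63 and 5.50 normalized reads in dcl4-2 on MS-N, 2.12, 2.23 and 1.16 in dcl4-2 on MS, against 3.27, 2.69 and 4.33 in Col-0 on MS-N, and 0.860, 0 and 1.03 in Col-0 on MS. The groups did not overlap in any of the 4 comparisons, yet none passed: the log2 changes were 1.29 for nitrogen in dcl4-2, 1.49 for nitrogen in Col-0, 0.64 for genotype on MS-N (-0.062 with equal sums over the split microRNA loci) and 0.84 for genotype on MS (adjusted p = 0.133, 0.134, 0.581 and 0.692). In that order, 15.6, 11.7, 14.3 and 5.12% of all tested loci had groups that did not overlap, higher on MS-N or in dcl4-2. With the spread of the locus alone both nitrogen comparisons of ARF10 passed (adjusted p = 0.0412 in dcl4-2 and 0.0367 in Col-0). Of all 21-nt and 22-nt reads of ARF10, 22-nt reads were 81.7% in dcl4-2 on MS-N, 89.1% in dcl4-2 on MS, against 25% in Col-0 on MS-N (exact 95% interval 8.66 to 49.1%) and 60% in Col-0 on MS (14.7 to 94.7%).

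**Figure D4:**
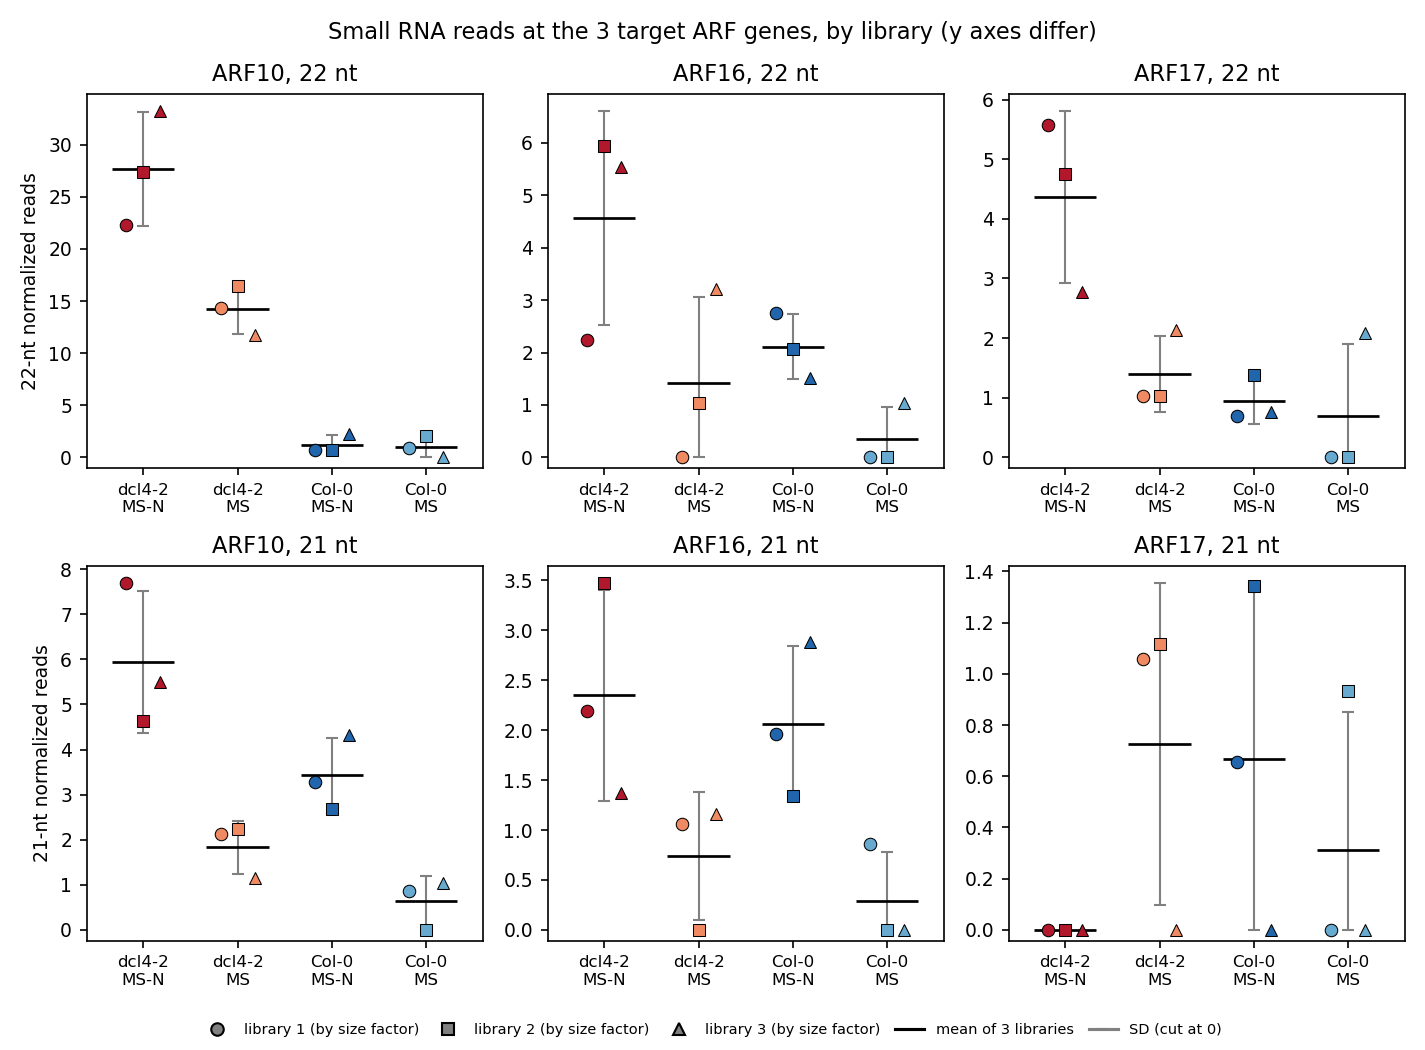
Normalized reads at ARF10, ARF16 and ARF17 in each recovered library, by group, with the group mean and SD (n = 3), at 22 nt in the top row and 21 nt in the bottom row. At 22 nt ARF10 has 11.8 to 33.3 normalized reads in dcl4-2 and 0 to 2.26 in Col-0.

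ARF16 and ARF17, which carry target sites of the same microRNA, stayed at a few reads per library. ARF16 had 2.23, 5.95 and 5.54 normalized 22-nt reads in dcl4-2 on MS-N, 0, 1.03 and 3.21 in dcl4-2 on MS, against 2.76, 2.07 and 1.51 in Col-0 on MS-N, and 0, 0 and 1.05 in Col-0 on MS. ARF17 had 5.58, 4.76 and 2.77 in dcl4-2 on MS-N, 1.02, 1.03 and 2.14 in dcl4-2 on MS, against 0.691, 1.38 and 0.754 in Col-0 on MS-N, and 0, 0 and 2.09 in Col-0 on MS. Both genes had their highest mean in dcl4-2 on MS-N, and ARF17 there did not overlap any other group. No comparison passed. The genotype log2 change was 0.78 on MS-N and 0.69 on MS for ARF16 (adjusted p = 0.509 and 0.795) and 1.45 and 0.69 for ARF17 (0.169 and 0.793). For nitrogen it was 1.37 in dcl4-2 and 1.28 in Col-0 for ARF16 (0.148 and 0.302) and 1.16 and 0.40 for ARF17 (0.220 and 0.813). These values rest on 1 to 11 whole 22-nt reads per group. At 21 nt ARF16 had 2.35 ± 1.06, 0.739 ± 0.642, 2.06 ± 0.775 and 0.287 ± 0.497 normalized reads in dcl4-2 on MS-N, dcl4-2 on MS, Col-0 on MS-N and Col-0 on MS. ARF17 at 21 nt had 0 whole reads in dcl4-2 on MS-N, which allows up to 3, and 2, 3 and 1 in the other groups in that order.

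**Figure D5:**
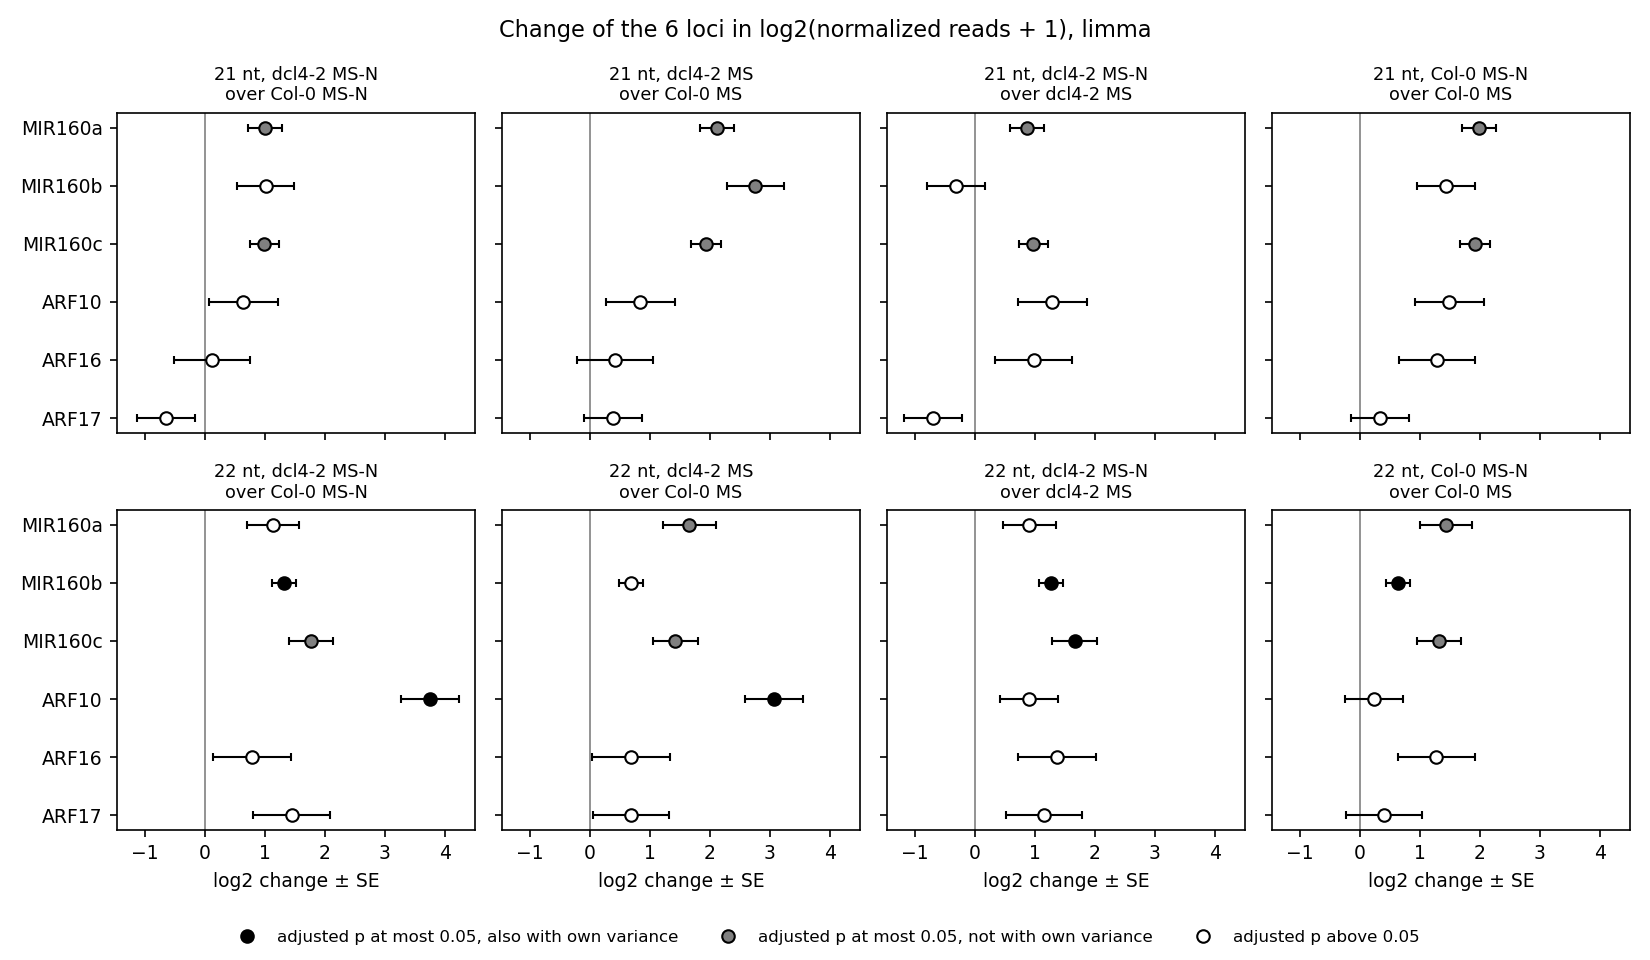
Log2 change with SE (limma, log2(value + 1) scale) of the 6 members in the 4 comparisons at 21 nt and 22 nt. Black points passed an adjusted p of 0.05 and also passed with the spread of the locus alone, grey points passed with moderated spread only, and white points did not pass. ARF10 at 22 nt is black in both genotype comparisons, at 3.75 on MS-N and 3.08 on MS.

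Counted over the 6 members, those that passed were all higher in dcl4-2 or on MS-N, and 0 were lower. The MIR160 loci may share reads, so these are not counts of independent loci. At 21 nt the median log2 change of the members was 0.92 for nitrogen in dcl4-2, 1.46 for nitrogen in Col-0, 0.82 for genotype on MS-N and 1.39 for genotype on MS, beside 0.28, 0.09, 0.14 and -0.08 over all tested loci. At 22 nt it was 1.21, 0.95, 1.38 and 1.06, beside 0.32, 0.02, 0.32 and -0.01. Groups that did not overlap, with the member higher, were found at 21 nt for 2, 4, 3 and 3 members in these comparisons, where 15.6, 11.7, 14.3 and 5.12% of all loci had them. At 22 nt this held for 5, 4, 5 and 4 members, beside 20.1, 11.1, 17.9 and 5.82% of all loci.

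Other ARF genes were examined for the same 22-nt pattern. Of the 20 tested, 4 rose and 0 fell in dcl4-2 relative to Col-0 on MS-N, and 3 rose and 0 fell on MS, with a median log2 change of 0.01 and 0.37. Over all tested loci 4.16% rose and 2.12% fell on MS-N, and 0.869% rose and 0.581% fell on MS. ARF4, a target of the TAS3 tasiRNAs, had 57.9 ± 7.11 normalized 22-nt reads in dcl4-2 and 9.09 ± 2.58 in Col-0 on MS-N (log2 change 2.57, adjusted p = 3.24e-07) and 38.6 ± 5.04 and 5.01 ± 2.34 on MS (2.79, adjusted p = 7.36e-08). ARF8, a target of miR167, had 7.57 ± 2.28 and 0.921 ± 1.60 on MS-N (2.43, adjusted p = 0.00536) and 18.5 ± 7.47 and 0.293 ± 0.507 on MS (3.92, adjusted p = 7.15e-06). ARF6, the other miR167 target, had 19.4 ± 9.26 and 4.57 ± 2.04 on MS-N (1.82, adjusted p = 0.0183) and 26.6 ± 11.6 and 2.77 ± 2.64 on MS (3.15, adjusted p = 2.79e-05). ARF10 is thus 1 of several ARF genes with more 22-nt reads in dcl4-2. Of the tasiRNA targets ARF2 and ARF3, ARF2 passed on MS-N only (1.13, adjusted p = 0.0265, against 0.31 on MS, adjusted p = 0.827), and ARF3 passed on neither medium (adjusted p = 0.201 on MS-N and 1 on MS). The ARF genes that passed kept their direction under all 3 other scalings, whereas the median of the 20 on MS-N turned negative under each of them (-0.58 to -0.23).

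At 21 nt ARF4 fell in dcl4-2, by 1.78 on the log2 scale on MS-N (adjusted p = 0.000109) and by 1.52 on MS (0.00208), and no other of the 20 ARF genes passed between genotypes. Over all tested loci 2.32% rose and 2.26% fell on MS-N, and 0.5% rose and 0.774% fell on MS. Under nitrogen deprivation at 21 nt 1 rose and 1 fell in dcl4-2, ARF2 at 1.18 (adjusted p = 0.0151) and ARF15 at -1.83 (0.00284), and 0 passed in Col-0. In dcl4-2 these are 1 of 20 each way, where 8.47% of all tested loci rose and 4.66% fell. In Col-0 2.08% of all tested loci rose and 3.86% fell. At 22 nt ARF2 at 1.03 (0.0239) and ARF7 at 1.65 (0.0466) rose in dcl4-2, and ARF23 at 1.58 (0.0449) rose in Col-0, which is 2 and 1 of 20 where 9.9% and 1.81% of all tested loci rose. For these 20 genes the median log2 change at 21 nt was 0.09 and 0.14 for nitrogen in dcl4-2 and Col-0 and -0.08 and 0.37 for genotype on MS-N and MS.

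Upstream in auxin signalling are the TIR1/AFB auxin receptors, some of which miR393 targets. Between genotypes AFB2 and AFB3 passed upward at 22 nt and downward at 21 nt, and the other receptor genes tested did not pass. At 22 nt AFB2 rose in dcl4-2 relative to Col-0 on MS-N (2.47, adjusted p = 3.24e-07) and on MS (1.58, adjusted p = 0.00214), AFB3 rose on MS-N (1.25, adjusted p = 0.0163), and 0 of 5 tested fell. At 21 nt AFB3 fell on both media (-2.28 and -2.46), AFB2 fell on MS (-1.60), and 0 of 6 rose. Over all tested loci 4.16% rose at 22 nt on MS-N and 0.869% on MS. The shares that fell at 21 nt were 2.26% and 0.774%. With nitrogen deprivation, TIR1 fell at 21 nt in Col-0 (-1.65, adjusted p = 0.0443), where 3.86% of all tested loci fell. AFB2 rose at 22 nt in dcl4-2 (1.11), where 9.9% of all tested loci rose. Of the 8 testable MIR164, MIR167, MIR390 and MIR393 loci, microRNAs that also act on auxin signalling, 8 rose at 21 nt in dcl4-2 on MS-N and 7 on MS, with median log2 changes of 1.13 and 1.29, which were 0.81 and 0.86 after scaling to the rpm of the whole microRNA class and 0.26 and 0.33 with equal sums over the split microRNA loci. Of all tested loci 2.32% rose on MS-N and 0.5% on MS. Under nitrogen deprivation 4 of these 8 microRNA loci rose and 2 fell in dcl4-2, and 6 rose and 2 fell in Col-0. Over all tested loci 8.47% rose and 4.66% fell in dcl4-2, and 2.08% rose and 3.86% fell in Col-0. The other 3 loci of these families, MIR167a, MIR167b and MIR393b, could not be split and had no test. The authors' 21-nt means of MIR167a were 23354 in dcl4-2 on MS-N and 25476.5 in dcl4-2 on MS, and 8536 in Col-0 on MS-N and 12851 in Col-0 on MS. Those of MIR393b were 3711 and 9569 on these media in dcl4-2 and 1453 and 2437 in Col-0, and MIR167b was likewise lower on MS-N in both genotypes. At 22 nt, with 11 tested, 4 rose in dcl4-2 relative to Col-0 on MS-N and 1 on MS, and 0 fell. Over all tested loci 4.16% rose on MS-N and 0.869% on MS.

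The loci whose pattern over the 4 group means was most like that of a member were found by Euclidean distance between centred log2 group means. For MIR160c at 21 nt these were MIR829 (distance 0.594), MIR163 (0.641) and MIR319b (0.673) of 909 candidates. MIR163 had 6438 normalized reads in dcl4-2 on MS-N, 2076 in dcl4-2 on MS, against 2632 in Col-0 on MS-N and 712 in Col-0 on MS. For ARF10 at 22 nt they were AT5G43730 (0.669), AT1G51480 (1.06) and TIC (1.25) of 1698 candidates. AT5G43730 had 238, 190, 34.3 and 21.2 normalized reads in the same order of groups. For ARF10 at 21 nt, where levels are low, they were APX1 (0.236), MIR866 (0.273) and MIR165a (0.282). With 4 group means per locus, these distances are a description only.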

How the data were processed

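Small RNA was sequenced from 12 libraries, 3 for each of dcl4-2 on MS-N, dcl4-2 on MS, Col-0 on MS-N and Col-0 on MS. Per the submitters' processing notes, Bowtie 1.2.2, SAMtools 1.9 and the build TAIR10 were used. The rule for counting reads that match several loci and the test behind the authors' p-values are not given in the sources used here. In the deposited gene tables each group has 1 signal value per locus, named TPM in the file header, and the authors' log2 ratios and p-values stand in further columns. Judged by its decimals, a signal value averages 3 libraries, each a whole number of reads over a size factor. The deposited class table holds rpm per library.

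The libraries behind each group mean were recovered by splitting the mean into whole numbers of reads times 1 step per library (relative tolerance 6e-15). Per group and length, 99.8 to 100% of the loci above 0 were split, and all 6 members were among them. The 33 loci at 21 nt and 12 at 22 nt left unsplit are abundant: they hold 71.3 to 88.4% of the column sums at 21 nt and 17.4 to 46.8% at 22 nt. Every SD and test at a locus depends on this step, which split all simulated means correctly. The simulated means were built from whole reads and the same steps, so they cannot show that the deposited means have this form. Libraries so recovered carry no replicate number.

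Loci with at least 1 normalized read in 3 or more of the 12 libraries were kept, which all 6 members were at both lengths. The log2(value + 1) of the 4 groups was fitted together in limma 3.58.1 (R 4.3.3) with a variance trend. P-values were adjusted over every locus kept by Benjamini-Hochberg, with a threshold of 0.05. Folds are ratios of group means, and log2 changes on this scale understate those of low loci. In simulated data for the genotype comparison on MS, 92 of 100 4-fold changes were recovered at 21 nt and 86 of 100 at 22 nt. These changes were placed only at loci with higher means in Col-0 on MS than the ARF members had. MIR160a and MIR160c at 22 nt also lay below that level. The simulated spread was a fixed setting and not that of the MIR160 loci, so these rates cannot be carried over to the members. Single loci were also tested by exact permutation, two-sided, a choice made after seeing the data, as were robust moderation, the spread of each locus alone, scaling to the rpm of the microRNA class and 22-nt shares without 1 of the 21-nt libraries. Class values of same-numbered libraries correlated from -0.519 to 0.779 over 18 pairs, above 0.1 in 7. That does not settle whether the replicates were paired. The main tests treated libraries as unpaired, and at loci the missing replicate numbers allowed nothing else. Intervals are Clopper-Pearson at 95% and, like the floor of 3 reads, cover counting error only.

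Identifiers were matched to RefSeq (TAIR10.1) for names, sequences and positions (31722 of 32420). The members and the gene lists were chosen with earlier results of these data known. All 6 members were named, and of the other ARF genes those that passed in a comparison and ARF2, ARF3, ARF4, ARF6 and ARF8. The lists were the other ARF genes, the TIR1/AFB receptors, 4 auxin-related microRNA families and all other microRNA genes.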

Additional observations from a re-analysis of the deposited data

How the results depend on the processing

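The 22-nt genotype difference of ARF10 passed in all 9 alternatives, with a log2 change of 3.13 to 4.59 on MS-N and 2.86 to 4.58 on MS. The 21-nt calls of MIR160 depended on the spread model. For nitrogen in dcl4-2 at 21 nt 2 members passed, but 0 with a pseudocount of 0.1, no variance trend, robust moderation or only the groups compared, and 1 with TMM scaling or the spread of each locus alone. For nitrogen in Col-0 at 21 nt the 2 became 1 with no trend or own spread and 0 with robust moderation. The 1 call left with own spread was ARF10 in both. For genotype on MS-N at 21 nt the 2 became 0 with no trend, own spread, robust moderation, the pseudocount, TMM, equal sums over the split microRNA loci and scaling to the rpm of the whole microRNA class, and on MS the 3 became 0 with the first 3 of these. At 22 nt the 3 for nitrogen in Col-0 became 0 with no trend and 1 with own spread. At 22 nt the 3 on MS-N became 1 with no trend or equal sums, and the 3 on MS became 1 with no trend, both microRNA scalings or only the groups compared. Leaving out 1 library, the counts ran at 21 nt from 1 to 2 for nitrogen in dcl4-2, 2 to 3 in Col-0, 0 to 3 for genotype on MS-N, 3 to 3 on MS and 0 to 3 for the interaction. At 22 nt they ran from 2 to 2, 0 to 2, 3 to 3, 1 to 3 and 0 to 0 in that order. Directions turned at 21 nt for MIR160b with nitrogen in dcl4-2 (-1.55 to 0.35 over all cases: 0.35 or 0.25 when library 1 or 2 of its MS group was left out, 0.24 when library 2 of its MS-N group was) and for ARF10 with genotype on MS-N (-0.062 with equal sums). At 22 nt they turned for ARF10 with nitrogen in Col-0 (-0.18 when library 3 of the MS group was left out, -0.079 when that of the MS-N group was, with a range up to 0.62). The cause was not tested. Between genotypes, the median of all 21-nt loci was 0.14 on MS-N and -0.08 on MS as deposited, 0 and -0.34 with scaling to the rpm of the whole microRNA class, and -0.33 and -0.64 with equal sums. MIR160c on MS was at 1.93, 1.51 and 0.97 under these 3 scalings.

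No paired analysis was possible at loci because the recovered libraries of the gene tables carry no replicate number. For the microRNA class, same-numbered libraries were also compared with a sign-flip test of their differences. The mean differences were 79730.4 and 45815.6 rpm at 21 nt for nitrogen and genotype and 7041.02 and 3823.22 rpm at 22 nt. These equal the unpaired differences by arithmetic. Each sign-flip p was 0.03125, the smallest that this test can give, and each unpaired exact permutation p was 0.005. The paired version therefore adds no support of its own. A planned quasi-likelihood count model was not run, since no table holds counts. ARF16 and ARF17 rest on at most 11 whole reads per group.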
